A study of Macaca fascicularis with 12 samples.

Results

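Messages for 4 cytokines that act on lymphocytes, IL15, IL7, TNFSF13B and TNFSF10, and for the receptor chain IL15RA were followed in macaque brain 2 days after injection of a baculovirus vector. These are 5 of the 14133 genes named on the array, and they were read through every probe set annotated with 1 of their symbols alone, 13 of 52865. The genes had been picked with their differences between virus-injected and mock-injected tissue in view, so these differences are given as a description, without a p-value. Of the 13 probe sets, 7 passed a filter on low signals, and they cover 4 of the 5 genes. No probe set of IL7 passed.

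BV-injected tissue came from around injection sites aimed at the left striatum of 3 adult male cynomolgus macaques that had received 4 microinjections of BV-HSVtk, each of 10 µL holding 1e8 viral particles. Mock-injected tissue was the right hemisphere of the same animals at corresponding coordinates, where virus-free Sf9 insect cell medium taken through the same purification was given. Every mock sample thus came from an animal with virus on its other side, and virus always lay on the left, so treatment and side cannot be told apart. Each hemisphere gave 2 pieces of about 100 mg and each piece 1 array, which made 6 BV arrays and 6 mock arrays. Replicates 1 and 2 are animal 1, replicates 3 and 4 animal 2 and replicates 5 and 6 animal 3. Piece 1 gave replicates 1, 3 and 5, and piece 2 gave replicates 2, 4 and 6.

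Interleukin 15 keeps natural killer cells and memory CD8 T cells alive and dividing. It is usually made together with its alpha receptor chain, IL15RA, which holds it on the surface of the producing cell and presents it to neighbouring lymphocytes that carry the beta and gamma chains. Interleukin 7 signals through the same gamma chain and maintains naive T cells. TNFSF13B encodes BAFF, a survival factor for B cells that myeloid cells release and that astrocytes can make. TNFSF10 encodes TRAIL, a ligand that triggers death receptors. Interferons are known inducers of IL15, BAFF and TRAIL in several cell types.

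Levels below are log2(signal + 3.49) after quantile normalization, and differences are BV minus mock on that scale, which understates changes of dim probe sets. Levels of different probe sets are not comparable with one another. The deposited medians of the piece 1 arrays, 50.2 to 62.8, lay above those of the piece 2 arrays, 25.4 to 32.7. The pieces also differed in region. The mean level of 6 markers of striatal medium spiny neurons ran between 5.40 and 9.45 on BV arrays and between 5.81 and 10.45 on mock arrays, and that of 5 thalamic markers between 5.96 and 9.58 on BV arrays and between 5.44 and 9.49 on mock arrays. Tissue from around sites aimed at the striatum therefore had low striatal and high thalamic markers on several arrays of both groups.

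TNFSF13B differed most. Its brighter probe set, MmugDNA.31841.1.S1_at, had levels of 6.32 at the lowest, 8.49 at the median and 9.50 at the highest on the 6 BV arrays, against 5.61, 6.08 and 6.77 on the 6 mock arrays. BV replicate 1 was the lowest BV array and lay below mock replicates 4 and 6, so single arrays of the groups overlapped. Averaged over pieces, the hemispheres had 7.45, 7.62 and 9.25 in BV-injected tissue of animals 1, 2 and 3, against 5.74, 6.24 and 6.41 in mock-injected tissue, with no overlap. The difference was 1.98 ± 0.29 (SE of the limma fit, n = 3 animals), a 3.94-fold higher signal. In deposited units the BV arrays read 89.2 to 1063 and the mock arrays 38.8 to 98.3. The second probe set, MmugDNA.635.1.S1_at, gave nearly the same result, with hemisphere levels of 7.17, 7.12 and 8.81 in BV-injected tissue against 5.55, 5.78 and 5.74 in mock-injected tissue and a difference of 2.01 ± 0.34 (n = 3 animals). Both probe sets were higher in 6 of 6 replicate pairs. The mock hemispheres were close to each other in the second probe set (SD 0.12), and the BV hemispheres spread far more (SD 0.96), with animal 3 at the top. Single arrays of this probe set spread further and overlapped, from 4.87 to 6.68 on mock arrays and from 6.18 to 8.83 on BV arrays. Among the 31660 differences computed, those of the probe sets held ranks 49 and 47 from the top.

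TNFSF10 was read by 4 probe sets that disagree. The brightest, MmugDNA.30129.1.S1_at, had levels of 8.51, 9.30 and 9.55 as lowest, median and highest BV arrays, against 7.42, 8.74 and 9.24 on mock arrays. The hemispheres had 9.03, 9.30 and 9.28 in BV-injected tissue of animals 1, 2 and 3, against 8.74, 9.21 and 7.86 in mock-injected tissue. BV hemispheres were alike (SD 0.15), while mock hemispheres ranged widely (SD 0.69). The difference of 0.60 ± 0.27 (n = 3 animals) thus came mainly from animal 3, whose mock side was the lowest, and it was 0.19 without that animal. The second probe set, MmuSTS.4666.1.S1_at, had 8.45, 8.84 and 8.60 in BV hemispheres against 8.10, 8.32 and 7.51 in mock hemispheres. Here the groups did not overlap and all 6 pairs were higher, by 0.65 ± 0.19 on average (n = 3 animals). The third, MmugDNA.43241.1.S1_at, pointed the other way, with a difference of -0.20 ± 0.18 (n = 3 animals) and higher values in only 3 of 6 pairs. The fourth, MmugDNA.36376.1.S1_at, was below the filter, at mean levels of 3.59 in BV and 3.68 in mock hemispheres. Centred on the mean of each piece number, the first and second probe sets correlated at r = 0.928 over the 12 arrays, while the third had r of -0.31 with the first and -0.25 with the second. Probe sequences were not used here, so what the third probe set reads was not examined.

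**Figure D1:**
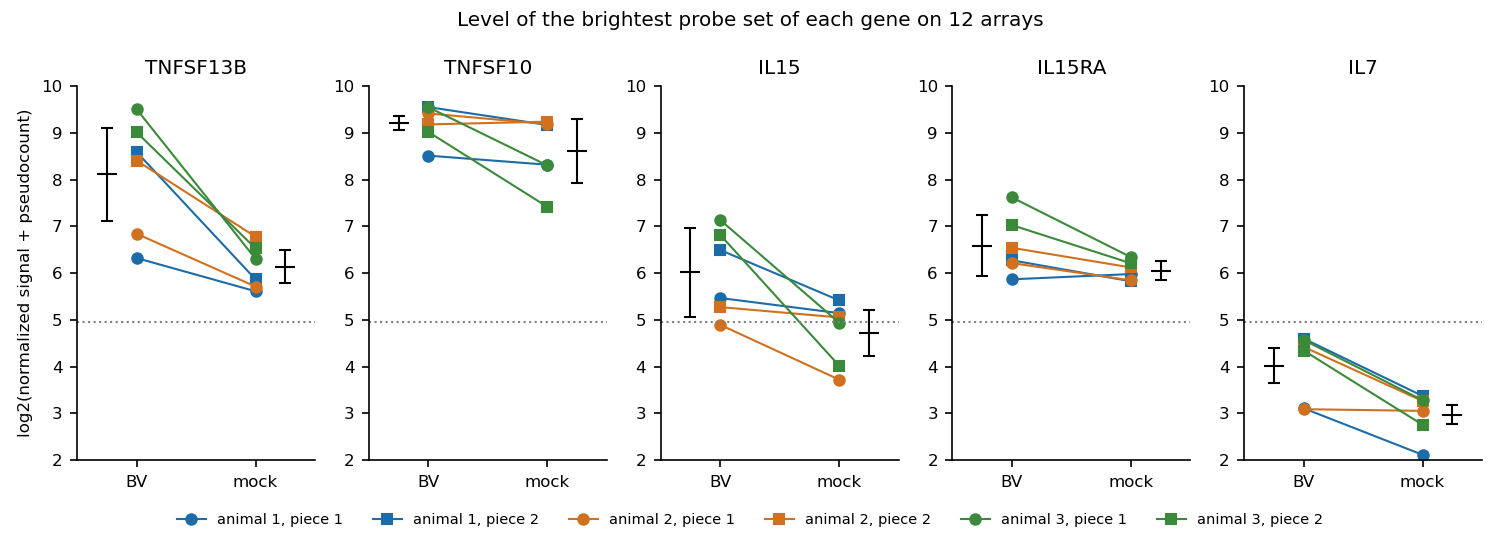
Levels, log2(normalized signal + 3.49), of the brightest probe set of each gene on BV arrays (left of each panel) and mock arrays (right). Lines join replicate pairs, colours stand for animals and symbols for pieces, black bars give mean ± SD over 3 hemispheres, and the dotted line is the filter level of 4.95. TNFSF13B falls into BV hemispheres at 7.45 to 9.25 and mock hemispheres at 5.74 to 6.41, while TNFSF10 spreads mostly on the mock side.

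IL15 was dim and variable. Its brightest probe set, MmugDNA.19109.1.S1_at, had levels of 4.89, 5.98 and 7.13 as lowest, median and highest BV arrays, against 3.72, 4.99 and 5.42 on mock arrays. BV hemispheres of animals 1, 2 and 3 had 5.98, 5.08 and 6.98, and mock hemispheres 5.28, 4.38 and 4.48. The BV side of animal 2 lay below the mock side of animal 1, so the groups overlapped, although each animal was higher on its own BV side and all 6 pairs were higher. The difference was 1.30 ± 0.38 (n = 3 animals), made of 0.70, 0.70 and 2.50 in animals 1, 2 and 3, and it was 0.70 without animal 3. The other probe sets, MmugDNA.37616.1.S1_at and MmugDNA.37616.1.S1_s_at, share their target and were both below the filter. Their differences were 1.55 and 1.22, with animal 3 again highest at 2.94 and 2.53. The 3 probe sets followed one another over the arrays, with r between 0.940 and 0.969 (12 arrays, centred by piece).

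IL15RA, the chain that presents IL15, was read by 1 probe set, MmuSTS.646.1.S1_at. It had levels of 5.87, 6.41 and 7.62 as lowest, median and highest BV arrays, against 5.82, 6.05 and 6.34 on mock arrays. The hemispheres of animals 1, 2 and 3 had 6.07, 6.38 and 7.32 in BV-injected tissue, against 5.90, 5.98 and 6.27 in mock-injected tissue. The mock sides were narrow (SD 0.20), the BV side of animal 3 stood above all others, and the BV side of animal 1 lay below the mock side of animal 3. The difference was 0.54 ± 0.21 (n = 3 animals), higher in 5 of 6 pairs, and 0.28 without animal 3.

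IL7 was near the bottom of the scale. Its brightest probe set, MmuSTS.686.1.S1_at, had levels of 3.09, 4.38 and 4.60 as lowest, median and highest BV arrays, against 2.11, 3.16 and 3.37 on mock arrays, all under the filter level of 4.95. Its hemispheres did not overlap, with 3.85, 3.75 and 4.45 in BV-injected tissue against 2.74, 3.16 and 3.02 in mock-injected tissue. The difference of 1.05 (SD 0.42 over 3 animals) was higher in 6 of 6 pairs. Deposited signals behind it were 6.3 to 28.7 on BV arrays and 1.1 to 9.3 on mock arrays. Of the other IL7 probe sets, which target 1 shared sequence record, the dimmest had a difference of 0.58 with all 6 pairs higher, and the one marked x_at had -0.04 with 3 of 6 pairs higher. At such signals a level has little precision.

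**Figure D2:**
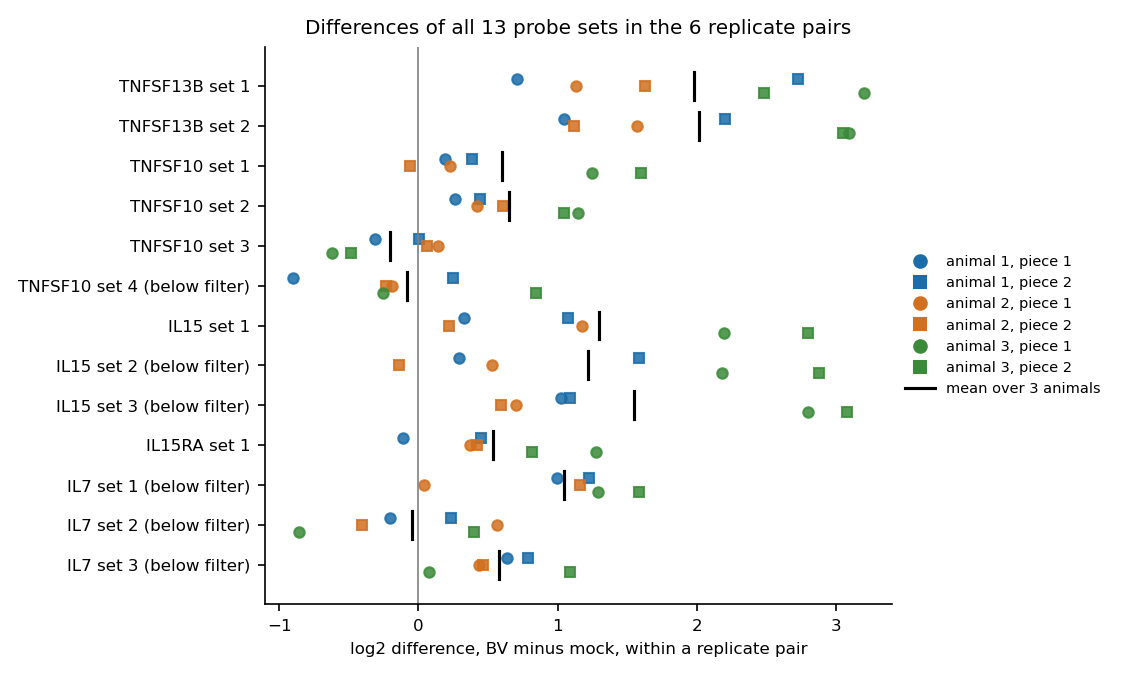
Differences of the 13 probe sets within each of the 6 replicate pairs (BV minus mock, log2), 1 line per probe set ordered from brightest to dimmest within its gene. Points are pairs, coloured by animal, and black ticks are means over 3 animals; TNFSF13B lies right of 0 in every pair, and TNFSF10 holds probe sets on both sides.

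Read over all members, 10 of 13 probe sets had a mean difference above 0, and 7 were higher in all 6 pairs. Among the 7 tested, 4 were higher in all 6 pairs, where 3.37% of the 31660 tested probe sets were, and 3 had BV hemispheres all above mock hemispheres, where 4.71% did. The IL15 probe set among the 4 passed the filter only through its BV arrays. In 0 of 7 did the 6 BV arrays all lie above the 6 mock arrays, where 0.237% did. As the genes had been chosen on this contrast, nothing is read from these shares.

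The size of the difference followed the animal. In 10 of 13 probe sets, and in the brightest one of all 5 genes, it was largest in animal 3. For TNFSF13B it was 1.72, 1.38 and 2.84 in animals 1, 2 and 3, and for IL15RA 0.17, 0.39 and 1.05. Whether animals differed was tested as an animal by treatment interaction on the 12 single arrays with limma. None of the 7 tested probe sets passed, with an adjusted p of 0.9998 for each by limma. IL15, which passed the filter only through its BV arrays, had the smallest unadjusted p among them, 0.0472 by limma. Over all probe sets 0 passed (0%), and 735 (2.32%) had an unadjusted p under 0.05. The larger values in animal 3 are thus not shown to exceed the spread between pieces. By piece, TNFSF13B had differences of 1.68 in the piece 1 arrays and 2.28 in the piece 2 arrays, IL15 1.23 and 1.37, TNFSF10 0.56 and 0.64, and IL15RA 0.51 and 0.56.

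Members differed in how alike their patterns over the arrays were. Over 12 arrays centred by piece, which share animals and contain the treatment difference, the brighter TNFSF13B probe set had r = 0.907 with IL15RA, 0.898 with the IL7 probe set, 0.800 with IL15 and 0.490 with the brightest TNFSF10 probe set. IL15 and IL15RA, ligand and presenting chain, had r = 0.721. Among the brightest probe sets, that of TNFSF10 had the lowest r with TNFSF13B.

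The genes most like each member were taken from 11139 named genes by the same correlation. The second TNFSF13B probe set lay closest to TYMP, thymidine phosphorylase, at r = 0.985, to TRIM25, a ubiquitin ligase that activates the RNA sensor RIG-I, at 0.984, and to PARP12, an antiviral ADP-ribosyltransferase, at 0.979. The brighter one lay closest to AMBP (0.973), TRIM25 (0.969) and PLA2G4C, a phospholipase (0.967). IL15RA lay closest to GZMB, granzyme B of cytotoxic lymphocytes, at 0.979, NKG7, a protein of cytotoxic granules, at 0.974, and HK2, a hexokinase, at 0.968. IL15 lay closest to DDHD1 (0.932), TDRD7 (0.922) and PHF11 (0.919). The brightest TNFSF10 probe set lay closest to PPP2R3C (0.953), NECTIN3 (0.948) and HCFC2 (0.934), whose own differences were small at 0.11, 0.33 and 0.12. The second lay closest to LOC709255 (0.927), LSP1 (0.906) and TFDP2 (0.904), and the third to LOC693874 (0.918), GABRA4 (0.916) and HTR3C (0.908).

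Receptors, signalling genes and relatives of the members were tested in the same limma fit, on lists drawn up with earlier results of these data known. On these 5 lists, 30 of 62 genes were measured, and 0 passed in either direction, where 0.0284% of all probe sets passed as higher and 0% as lower. At an unadjusted p under 0.05 there were 3, all higher (PIM1, CFLAR and BAX), which is 3 of 30 against 8.8% of all probe sets (5.15% higher and 3.65% lower). Differences ran from -0.30 to 1.00, with a median of 0.11 against -0.02 over all 31660.

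Of the IL15 and IL7 receptor path, 8 of 13 genes were measured, 6 higher and 2 lower in value, with a median of 0.15 that was 0.07 without animal 3 and 0.28 without animal 2. IL2RG, the shared gamma chain, had mean levels of 7.43 in BV and 7.28 in mock hemispheres, a difference of 0.15 ± 0.16 (adjusted p = 0.712 by limma). IL2RB, IL7R and JAK1 had no probe set under their own symbol, and JAK3 was below the filter. PIM1, a kinase induced by STAT5, had 7.42 in BV and 6.78 in mock hemispheres, a difference of 0.64 ± 0.17 that was higher in 6 of 6 pairs and did not pass (adjusted p = 0.53 by limma). STAT5A, a transcription factor that the receptor activates, had 0.44 ± 0.31 (adjusted p = 0.602 by limma). STAT5A, counted among the 6 higher, passed the filter only through its BV arrays (5.23 in BV and 4.78 in mock hemispheres). Among other gamma chain cytokines, IL2 was the only 1 of 5 measured, with 0.23 ± 0.20 (adjusted p = 0.65 by limma). The 3 probe sets of IL2, including any below the filter, ran from -0.15 to 0.23.

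TNFRSF13B, the receptor TACI, had mean levels of 6.77 in BV and 6.96 in mock hemispheres, a difference of -0.19 ± 0.15 (adjusted p = 0.626 by limma). TNFRSF13C, the BAFF receptor proper, and TNFRSF17, the plasma cell receptor BCMA, were below the filter, at 3.48 and 2.92 in BV against 3.51 and 2.64 in mock hemispheres. TNFSF13, which encodes the relative APRIL, was not represented under its own name. The 7 measured genes of this list, which also covers noncanonical NF-kappaB, lay between -0.19 and 0.11, with a median of 0.01 (-0.08 without animal 3) and with RELB, a subunit of that pathway, at -0.13 ± 0.14 (adjusted p = 0.72 by limma). These values are of brightest probe sets. Including any below the filter, the 3 probe sets of NFKB2 ran from 0.11 to 0.71. The 4 of BIRC2 ran from -0.14 to 0.29 and the 3 of TNFRSF13B from -0.20 to 0.13.

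TRAIL signalling genes had the highest median of the 4 lists with more than 1 measured gene, 0.41 over 8 of 18 genes, with 6 higher and 2 lower in value. Leaving out animal 3 gave a median of 0.17, leaving out animal 1 gave 0.20, and leaving out mock replicate 1 gave 0.27. CFLAR, the inhibitor FLIP that blocks caspase activation at death receptors, had mean levels of 7.70 in BV and 6.70 in mock hemispheres. Its difference of 1.00 ± 0.19 was higher in 6 of 6 pairs and did not pass (adjusted p = 0.397 by limma), and its 4 probe sets ran from 0.59 to 1.06. Without animal 2 it was the 1 gene of the 30 measured on these lists that passed, where 1845 of all 31660 probe sets passed. The death receptors TNFRSF10A and TNFRSF10B had 0.26 ± 0.21 (adjusted p = 0.633 by limma) and 0.57 ± 0.28 (adjusted p = 0.569 by limma), and the soluble decoy TNFRSF11B was below the filter. TNFRSF10B, counted among the 6 higher, passed the filter only through its BV arrays (5.36 in BV and 4.79 in mock hemispheres). TNFRSF10C and TNFRSF10D, membrane decoys in human cells, were not represented. BAX, a pore protein of mitochondrial death, had 0.57 ± 0.22 (adjusted p = 0.564 by limma).

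Of 14 other ligands of the TNF family 6 were measured, with differences from -0.30 to 0.29, a median of 0.04 and a sign of the median that turned without animal 2 (-0.07). Another 6 were below the filter, TNF among them with 4.04 in BV and 2.80 in mock hemispheres, higher in 5 of 6 pairs and untested. TNFSF4, the T cell costimulator OX40L, had -0.30 ± 0.17 (adjusted p = 0.575 by limma) and TNFSF18, the ligand of GITR, 0.29 ± 0.15 (adjusted p = 0.57 by limma).

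**Figure D3:**
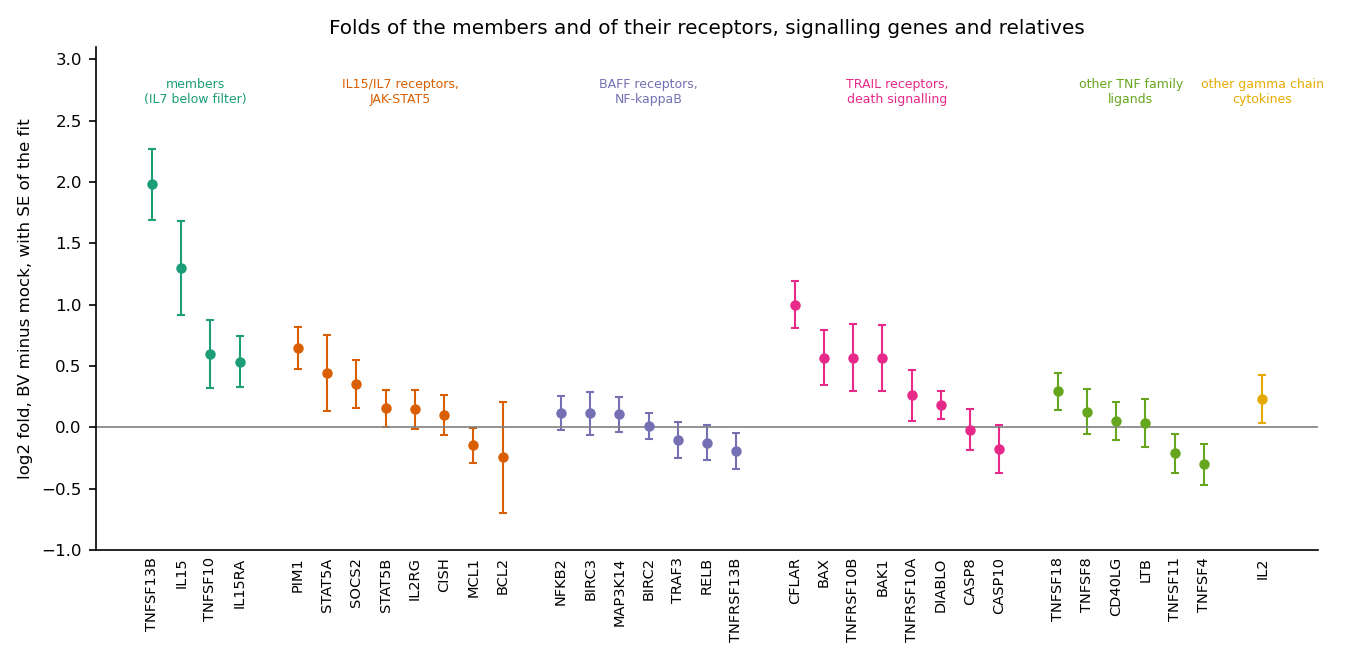
Difference BV minus mock (log2, bars are the SE of the limma fit, n = 3 animals) of the 4 members above the filter and of 30 genes on 5 related lists, 1 colour per list, sorted within lists. TNFSF13B and IL15 are highest, and among related genes CFLAR reaches 1.00 while the brightest probe sets of the BAFF receptor list stay between -0.19 and 0.11.

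Cells that the cytokines act on or come from were looked at through marker lists. In bulk tissue, a change in the number of cells and one in RNA per cell cannot be told apart. T cell markers were hardly covered, with CD5 and CD8A as the 2 of 10 measured and no probe set named CD3D or CD3E. Their summed signal was 116 to 191 on BV arrays and 117 to 193 on mock arrays. Of 10 NK and cytotoxic markers 7 were measured, 3 higher and 4 lower in value, with sums of 2003 to 2945 on BV arrays and 2366 to 2758 on mock arrays. Within this list GZMB had 1.08 ± 0.30 (adjusted p = 0.559 by limma) and NKG7 0.69 ± 0.22 (adjusted p = 0.564 by limma). Of 10 B and plasma cell markers 4 were measured, 2 higher and 2 lower in value, with differences from -0.23 to 0.55. Their sums were 224 to 281 on BV arrays and 215 to 293 on mock arrays. MS4A1 (CD20) and CD79A, both defining B cell genes, were below the filter. The ranges of the groups overlapped in all 3 lists. Within pairs, the mean of the NK and cytotoxic markers was higher in 6 of 6, by 0.06, 0.18, 0.24, 0.32, 0.11 and 0.28 in pairs 1 to 6, and that of the B and plasma cell markers in 6 of 6, by 0.06, 0.14, 0.11, 0.04, 0.45 and 0.18. That of the T cell markers differed by -0.20, -0.04, 0.30, -0.19, -0.19 and -0.01. The median difference of the 7 NK and cytotoxic markers was -0.0007, with GZMB and NKG7 well above it. The part of these cells in the members' differences was not tested.

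Monocyte and neutrophil markers were higher in most pairs as well. All 8 measured of 10 were higher in value, with a median of 1.08, sums of 1337 to 5795 on BV arrays and 571 to 5245 on mock arrays, and S100A9 at 1.34 ± 0.41 (adjusted p = 0.564 by limma). Count and median include FCN1, which passed the filter only through its BV arrays (5.76 in BV and 4.25 in mock hemispheres). The mean of the 8 markers differed by 1.12, 1.98, -0.12, 0.26, 0.76 and 1.95 in pairs 1 to 6, while TNFSF13B differed by 0.71, 2.72, 1.13, 1.63, 3.20 and 2.48. In pair 3 TNFSF13B was higher and these markers were not, and in all other pairs both were higher. The part of these markers in the result was not tested. Microglia and macrophage markers had 12 of 12 measured, 9 higher and 3 lower in value, a median of 0.13, sums of 6649 to 15792 on BV arrays and 4708 to 10072 on mock arrays, and AIF1 at 0.27 ± 0.16. They went both ways: CD68, a lysosomal protein, had the highest value, 1.41 ± 0.47 (adjusted p = 0.564 by limma), and ITGAM, an integrin chain, the lowest, -0.62 ± 0.15 (adjusted p = 0.507 by limma), both picked after their values were seen. Dendritic cell markers had 5 of 10 measured and a median of -0.15, with sums of 655 to 811 on BV arrays and 559 to 1226 on mock arrays.

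Interferon-stimulated genes, part of the general antiviral response, were listed with earlier results of these data known. Of the 12 measured, 11 were higher in value, where 46.9% of all tested probe sets were. Of these 11, 4 passed the test, where 0.0284% of all tested probe sets passed as higher. IRF7 was lower at -0.89 (adjusted p = 0.608 by limma). The mean of the 12 genes was higher by 1.33, 1.71, 1.79, 1.07, 1.82 and 2.64 in pairs 1 to 6, and ISG15 and MX1 passed over all probe sets (adjusted p = 0.00539 and 0.0256 by limma). Over 12 arrays centred by piece, this mean had r = 0.942 and 0.977 with the TNFSF13B probe sets, 0.849 with IL15, 0.819 with IL15RA and 0.528, 0.627 and -0.491 with the TNFSF10 probe sets above the filter. Probe sets of a gene are given from bright to dim. That of the monocyte and neutrophil markers had 0.702 and 0.716 with TNFSF13B, 0.560 with IL15, 0.547 with IL15RA and 0.664, 0.622 and -0.357 with TNFSF10. Microglia and macrophage markers had 0.750 and 0.800 with TNFSF13B, 0.731 with IL15, 0.751 with IL15RA and 0.561, 0.476 and -0.577 with TNFSF10. For NK and cytotoxic markers these values were, in the same order, 0.791, 0.764, 0.595, 0.808, 0.010, 0.209 and -0.201. With TNFSF13B, B and plasma cell markers had 0.504 and 0.512 and T cell markers 0.072 and 0.022. Both groups enter these values, so the treatment difference is part of each of them.

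Region differed within pairs too. The mean of the 6 striatal markers differed by 0.96, -4.51, 1.45, 0.41, -3.08 and -1.09 in pairs 1 to 6, and that of the 5 thalamic markers by 0.09, 2.66, -0.01, 1.43, 1.82 and 0.52. TNFSF13B was higher in all 6 pairs, and its smallest differences, in pairs 1, 3 and 4, were those of the pairs with higher striatal markers on the BV side. All 6 measured of 10 striatal markers were lower in value and all 5 measured of 8 thalamic markers higher, with medians of -1.06 and 1.02. PPP1R1B and DRD2, striatal genes, had -0.71 ± 0.39 and -1.17 ± 0.55, and TCF7L2, a thalamic gene, 0.86 ± 0.11. Of 8 astrocyte markers 6 were measured, 4 higher and 2 lower in value, with sums of 11278 to 14023 on BV arrays and 12020 to 14656 on mock arrays. GFAP, the astrocyte filament protein, had 0.05 ± 0.07, while SLC1A2, a glutamate transporter picked after its value was seen, had -0.998 ± 0.20, lower in 6 of 6 pairs (adjusted p = 0.407 by limma). Of 8 endothelial markers 5 were measured, all higher in value, and PECAM1, an endothelial adhesion protein, 0.36 ± 0.16. The mean of the striatal markers had r of -0.23 with both TNFSF13B probe sets and of -0.50 and -0.51 with the first and second TNFSF10 probe sets. The lowest mock arrays of the first, replicates 5 and 6 at 8.30 and 7.42, had striatal means of 9.88 and 10.45. But mock replicate 1 had nearly the same level as replicate 5, 8.32, at a striatal mean of 5.99. Mock replicate 2, with a striatal mean of 9.91, had 9.17. The part of region in the TNFSF13B and TNFSF10 differences was not tested.

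**Figure D4:**
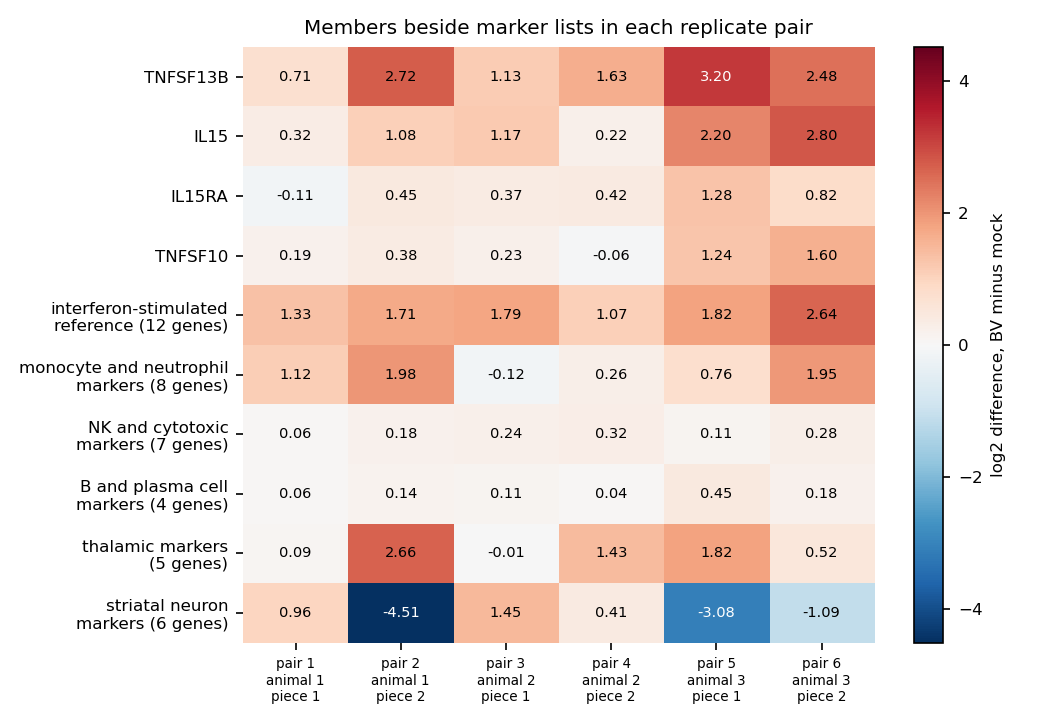
Difference BV minus mock (log2) in each of the 6 replicate pairs for the brightest probe sets of 4 members and for the means of 6 lists of marker genes; red is higher and blue lower in BV tissue. TNFSF13B and the interferon-stimulated genes are higher in all 6 pairs, while striatal markers run from -4.51 to 1.45.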

How the data were processed

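Total RNA of brain pieces was extracted with Trizol and labelled with biotin, per the labels' protocols, and hybridised to 12 arrays. The authors deposited 1 linear intensity per probe set. GCOS 1.4.0.036 is listed in the submitters' processing notes, while summary algorithm and scaling are not stated there. The 12 arrays were quantile normalized, 3.49 (the 10th percentile of all signals) was added and log2 taken, 99 control probe sets were dropped, and a mean of at least 4.95 (the 40th percentile) left 31660 of 52766 probe sets for testing. Both pieces of a hemisphere were averaged, and limma 3.58.1 under R 4.3.3 was fitted with animal as a block, treatment as a term and a variance trend (2 residual degrees of freedom, two-sided, Benjamini-Hochberg at 0.05). The pairing follows from the protocol, and deviations of both sides of an animal correlated at r = 0.622, 0.156 and 0.361. The number of arrays limits the precision.

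Symbols came from the platform annotation of this rhesus array, in which 24969 probe sets have 1 symbol, 361 several and 27535 none. All 5 also occur in the Macaca fascicularis gene table. The brightest probe set stands for a gene. Members, lists and naming rule were chosen with earlier results of these data known. Named were all members, the related genes that passed or otherwise the 2 of largest difference per list, the direct receptors, defining markers, and the 3 genes closest in pattern to each tested member probe set. CASP8, BAK1, BCL2, IL2RA, TNF, SLC1A2, CD68, ITGAM, FCN1 and IRF7 are named after their values were seen. Alternatives covered pseudocount, filter, normalization, block, pieces, trend and left-out animals or arrays. Promoter motifs were planned and are not analysed here.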

Additional observations from a re-analysis of the deposited data

Results flagged for a closer look

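On member probe sets, 2 arrays stood apart from the other 5 of their group. The IL7 probe set marked x_at had 3.99 on BV replicate 3, with the next BV array at 2.86. The dimmest IL7 probe set had 2.70 on mock replicate 5, with the next mock array at 2.23. Both lie near the bottom of the scale. Among related genes 3 arrays stood apart: IL2RG had 7.84 on mock replicate 3, CASP8, the initiator caspase of death receptors, 6.14 on mock replicate 4 and BAK1, a pore protein of mitochondrial death, 8.06 on BV replicate 5. Chance sets an array apart in about 1 of 20 groups, and 86 groups of 6 arrays were checked.

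The sign of the difference varied between animals, with both pairs of each named animal alike in sign, for 5 genes. The share of all probe sets with this pattern was not computed, and nothing is read from it. The third TNFSF10 probe set had 0.10 in animal 2 and -0.56 in animal 3. IL2RG had -0.017, near 0, in animal 1 and 0.41 in animal 3. STAT5A had 0.49, -0.34 and 1.18 in animals 1, 2 and 3, and TNFRSF10A 0.38, -0.16 and 0.56. BCL2, a survival factor, had -1.42 in animal 2 and 1.07 in animal 3. None passed the limma interaction test over all probe sets.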

How the results depend on the processing

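All 5 members kept a BV minus mock difference above 0 under every alternative tried. Leaving out an animal or array gave 0.70 to 1.60 for IL15, 0.28 to 0.72 for IL15RA, 0.80 to 1.30 for IL7, 1.55 to 2.36 for TNFSF13B and 0.19 to 0.85 for TNFSF10. Averaging all probe sets of a gene gave 0.53 for IL7 and 0.24 for TNFSF10. No related gene passed under the alternatives, except CFLAR without animal 2, so that leaving out animals or arrays gave 0 to 1. The count of all probe sets called, 9 in the fit reported, was 5 without a filter, 1 without normalization, 30 with animal as block on single arrays, 38 with a further term for piece, 25 with duplicateCorrelation, 14 in the piece 1 and 0 in the piece 2 arrays (1747 at an unadjusted p under 0.05 by limma) and 1 without the variance trend. With the replicate number as the block on single arrays 55 passed, and with no block 4; neither changed a call among related genes. The largest count on leaving out an animal or array was 1845 (animal 2 left out), and the smallest was 0 (mock replicate 5 left out, when 1703 had p under 0.05 before adjustment by limma). Dropping animal 3 gave 82, dropping animal 1 gave 1, and among arrays the count was 43 for mock replicate 6 dropped, 28 for mock 4, 15 for BV 3, and 1 each for BV 6 and mock 3. All fits on single arrays treat the pieces of a hemisphere as independent within the animal. That with duplicateCorrelation has 1 correlation shared by all arrays of an animal, whatever their side, and none for the hemisphere. Few animals and dim signals, for IL7 most of all, limit what can be told. The planned description of promoter motifs was not run. The interaction test called 0 probe sets under every alternative tried.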

Other observations

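IL2RA, the alpha chain of the IL2 receptor, was below the filter and was singled out after its value was seen. Its mean levels were 5.57 in BV and 4.05 in mock hemispheres, a difference of 1.52 that was higher in 6 of 6 pairs. It was not tested.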
